A study of Homo sapiens with 4 samples.

Results

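The metallothioneins MT1E, MT1F, MT1X and MT2A, their transcription factor MTF1 and the zinc exporter SLC30A1 were described in A549 cells, an established epithelial cell line from a human lung carcinoma. The 6 genes were chosen by symbol with their fold changes between the same libraries in view, so those fold changes are given as a description, and no support is drawn from edgeR's calls on them. Of the 6, 5 had a row among the 15037 genes of the count table and all 5 passed the filter on low counts; MT1E was not analysed here. Messenger RNA had been sequenced from 4 libraries, 2 labelled as a knockdown of PSME4 (PSME4 KD), an activator that caps the proteasome core, and 2 labelled as a knockdown of RFP (control KD). All cells were grown in the same medium, and the labels name no metal, hormone or other agent. The labels do not say how the knockdown was made, or whether each library had a culture of its own, so errors and p-values cover only the differences among these libraries, and those may be technical.

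Metallothioneins are small, cysteine-rich proteins that bind zinc, copper and cadmium in clusters of thiolates and hold most of the readily exchanged zinc of a cell. MTF1 is a zinc finger factor that senses free zinc: when zinc rises, it binds metal response elements near the start of metallothionein genes and of SLC30A1, whose product moves zinc out of the cell through the plasma membrane. Glucocorticoids and oxidative stress also raise several metallothionein transcripts, in lung epithelial cells among others.

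Metal response elements share a short core, TGCACNC or TGCGCNC, which was searched on both strands of the 250 bases before the RefSeq start (GRCh38.p14), where 4 of the 6 symbols had a window. The windows of MT2A, MT1X and SLC30A1 are shown because these genes are the textbook targets of MTF1 and their transcripts went in different directions below. Capitals mark each match, and a match on the opposite strand reads GNGTGCA or GNGCGCA. MT2A lies at chr16:56608334-56608583 on the plus strand, MT1X at chr16:56682220-56682469 on the plus strand and SLC30A1 at chr1:211579162-211579411 on the minus strand, each printed 5′ to 3′ along its gene.
MT2A: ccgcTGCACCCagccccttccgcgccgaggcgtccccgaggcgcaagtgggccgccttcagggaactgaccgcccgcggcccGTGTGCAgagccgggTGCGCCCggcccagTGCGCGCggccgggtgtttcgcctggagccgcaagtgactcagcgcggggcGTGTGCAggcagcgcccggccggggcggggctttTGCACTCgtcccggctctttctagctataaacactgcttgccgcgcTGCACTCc
MT1X: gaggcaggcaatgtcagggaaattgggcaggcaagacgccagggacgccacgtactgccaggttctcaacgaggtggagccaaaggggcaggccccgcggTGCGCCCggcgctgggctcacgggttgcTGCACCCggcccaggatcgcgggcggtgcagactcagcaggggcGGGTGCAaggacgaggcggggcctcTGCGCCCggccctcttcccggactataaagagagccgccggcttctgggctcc
SLC30A1: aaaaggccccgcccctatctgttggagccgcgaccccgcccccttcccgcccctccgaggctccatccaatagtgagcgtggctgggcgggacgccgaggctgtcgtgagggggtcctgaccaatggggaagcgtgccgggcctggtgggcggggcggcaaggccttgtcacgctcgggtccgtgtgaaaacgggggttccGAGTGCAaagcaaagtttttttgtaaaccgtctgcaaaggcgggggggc

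The window of MT2A held 7 core matches, that of MT1X 4, that of SLC30A1 1 and that of MTF1 0, and no match overlapped another. Over 35116 promoter windows of the same length, 24.8% held at least 1 match, 0.370% at least 4 and 0.0313% at least 7. Those windows were not matched for GC content, which was 73.2% for MT2A, 70% for MT1X, 70% for MTF1 and 66.4% for SLC30A1. A match shows that these letters occur in the window, and binding of MTF1 was not measured.

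The libraries held 11766371 to 15208588 counts each, with the PSME4 KD pair the deeper. Levels are given as CPM, counts scaled to a common library size with TMM factors. PSME4 mRNA fell, from 158 and 180 CPM in the control KD pair to 75.3 and 85.1 CPM in the PSME4 KD pair, a log2 fold change of −1.08 (SE 0.20). Its Benjamini-Hochberg adjusted p was 0.000855 in edgeR's quasi-likelihood fit, and it kept this call when PSME4 KD 2 was left out (0.0145) but not when control KD 1 (0.0522), control KD 2 (0.0599) or PSME4 KD 1 (0.146) was. Epithelial markers (KRT8, KRT18, KRT7, EPCAM, CDH1) summed to 3698 to 5157 CPM, most of it from KRT18 at 2820 to 4119 CPM. EPCAM was itself low, at 5.42 to 7.88 CPM, below the leukocyte gene CD68 at 23.7 to 33.5 CPM. Markers of other cells were low, with 3 leukocyte genes (CD68, CD14 and LYZ) at a summed 29.1 to 33.8 CPM in control KD and 39.3 to 39.4 CPM in PSME4 KD, 3 of 6 fibroblast genes at 17.2 to 21.2 and 26.4 to 28.6 CPM, and 2 of 5 endothelial genes at 12.6 to 16.2 CPM over all libraries. PTPRC, CD3E, PECAM1, VWF and CDH5 had no row in the table used here. In a bulk library a change in RNA per cell and a change in the mix of cells cannot be told apart, and the part of these markers in the results below was not tested.

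The metallothioneins MT1F and MT1X had higher mean levels in PSME4 KD cells, by 4.59-fold and 2.38-fold. MT2A differed by 1.29-fold and was not called by edgeR. The zinc exporter SLC30A1 was 1.54-fold lower, and the means of MTF1 differed by less than the spread between its libraries. Of the 5 genes, 2 (MT1F and MT1X) were among the 4.56% of 13497 tested genes called higher by edgeR at an adjusted p under 0.05, and 1 (SLC30A1) among the 6.0% called lower; over both directions the test called 10.6%. The libraries of both groups did not overlap for 4 of the 5, 3 with PSME4 KD higher and 1 with it lower; this was so for 55.0% of all genes tested, 26.7% higher and 28.4% lower. Because the list was drawn up with this comparison known, nothing is read from these counts. The plot of levels by library shows the same 4 separations and the overlap of MTF1.

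**Figure D1:**
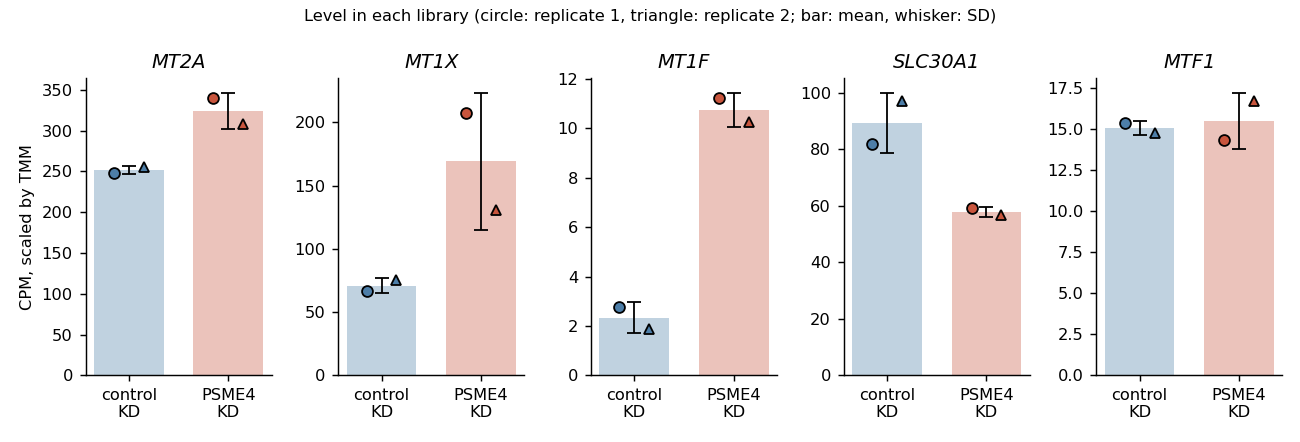
Level of each gene in CPM scaled by TMM, on axes that start at 0, in control KD and PSME4 KD libraries (points: single libraries; bars: mean of 2; whiskers: SD). MT1X stands at 208 and 131 CPM in PSME4 KD against 66.7 and 75.3 in control KD, and SLC30A1 is the only one of the 5 with both PSME4 KD libraries below both control KD libraries.

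MT2A, the most abundant of the 5 metallothionein rows in the table (MT1E not among them), stood at 248 and 255 CPM in control KD 1 and 2, with 340 and 309 CPM in PSME4 KD 1 and 2. Both PSME4 KD libraries were above both control KD libraries, and the libraries of a group lay close together. The means were 252 ± 4.94 and 324 ± 22.3 CPM (SD, n = 2), a log2 fold change of 0.37 (SE 0.19), and 21.5% of all tested genes had a higher one. Of the 3 listed metallothioneins with a row, MT2A had the highest level and the smallest fold change.

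MT1X, another widely expressed metallothionein, was measured at 66.7 and 75.3 CPM in control KD 1 and 2, against 208 and 131 CPM in PSME4 KD 1 and 2. The groups did not overlap, but the PSME4 KD libraries were far apart. The means were 71.0 ± 6.09 and 169 ± 54.5 CPM (SD, n = 2), a log2 fold change of 1.25 (SE 0.22). Between PSME4 KD 2 and PSME4 KD 1 the log2 difference was −0.67, and only 1.24% of the 1287 tested genes at a like level (within 0.5 log2 CPM) differed more between these libraries. Without PSME4 KD 1 the log2 fold change was 0.88, and without PSME4 KD 2 it was 1.58.

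MT1F, a low-abundance member of the same cluster, had 2.77 and 1.89 CPM in control KD 1 and 2 and 11.2 and 10.2 CPM in PSME4 KD 1 and 2. These rest on 32 and 22 counts in control KD and 171 and 156 in PSME4 KD, so the base of the fold change is the less precise side. The groups were far apart, and the PSME4 KD libraries were closer to each other than the control KD libraries on the log2 scale (−0.13 against −0.52). The means were 2.33 ± 0.620 and 10.7 ± 0.704 CPM (SD, n = 2), a log2 fold change of 2.20 (SE 0.32), and 0.185% of tested genes had a higher one. With 1 control library left out it was 2.50 without control KD 1 and 1.96 without control KD 2.

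SLC30A1, which exports zinc at the plasma membrane, was at 81.8 and 96.9 CPM in control KD 1 and 2, above the 59.2 and 56.6 CPM of PSME4 KD 1 and 2. Both PSME4 KD libraries were below both control KD libraries. The means were 89.4 ± 10.7 and 57.9 ± 1.85 CPM (SD, n = 2), a log2 fold change of −0.63 (SE 0.20), and 9.65% of tested genes had a lower one. The log2 fold changes of SLC30A1 and of MT1F, MT1X and MT2A lay on opposite sides of 0, and the cause was not tested.

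MTF1 mRNA was at 15.4 and 14.8 CPM in control KD 1 and 2, beside 14.3 and 16.7 CPM in PSME4 KD 1 and 2. The groups overlapped, with the PSME4 KD libraries outside the control KD ones on either side. The means were 15.1 ± 0.432 and 15.5 ± 1.71 CPM (SD, n = 2), a log2 fold change of 0.04 (SE 0.24), and it turned to −0.047 without PSME4 KD 2. These values describe MTF1 mRNA, and neither its protein nor its zinc occupancy was measured.

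Calls on these genes, from which nothing is read, varied with the libraries fitted. With 1 library left out, edgeR called MT1F higher without control KD 1 and without PSME4 KD 2, and MT1X only without PSME4 KD 2. It called SLC30A1 in none of these 4 fits. Over all genes these fits called 43 to 281 genes, against 1426 with all libraries.

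Fold changes across genes followed the GC content of the transcripts (Spearman's rho 0.41 across genes, which are not independent replicates). The log2 difference between libraries of 1 group followed it as well, with a rho of −0.50 in the control KD pair (replicate 2 over replicate 1) and 0.10 in the PSME4 KD pair. MT2A and SLC30A1 lie toward the ends of the GC range. MT2A had a GC content of 63.0%, with 6.36% of tested genes above it, and SLC30A1 one of 38.0%, with 92.4% above it. MT1F had 59.9%, MT1X 54.3% and MTF1 46.7%. After a GC trend had been removed from each library, MT1F was at 1.96 (SE 0.28) and MT1X at 1.08 (SE 0.21). MT2A was at 0.12 (SE 0.18) and SLC30A1 at −0.35 (SE 0.16), and edgeR's call on SLC30A1 ended. The differences of MT2A and SLC30A1 were thus over 1.5 times smaller on this scale, as the plot of fold changes by processing shows.

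**Figure D2:**
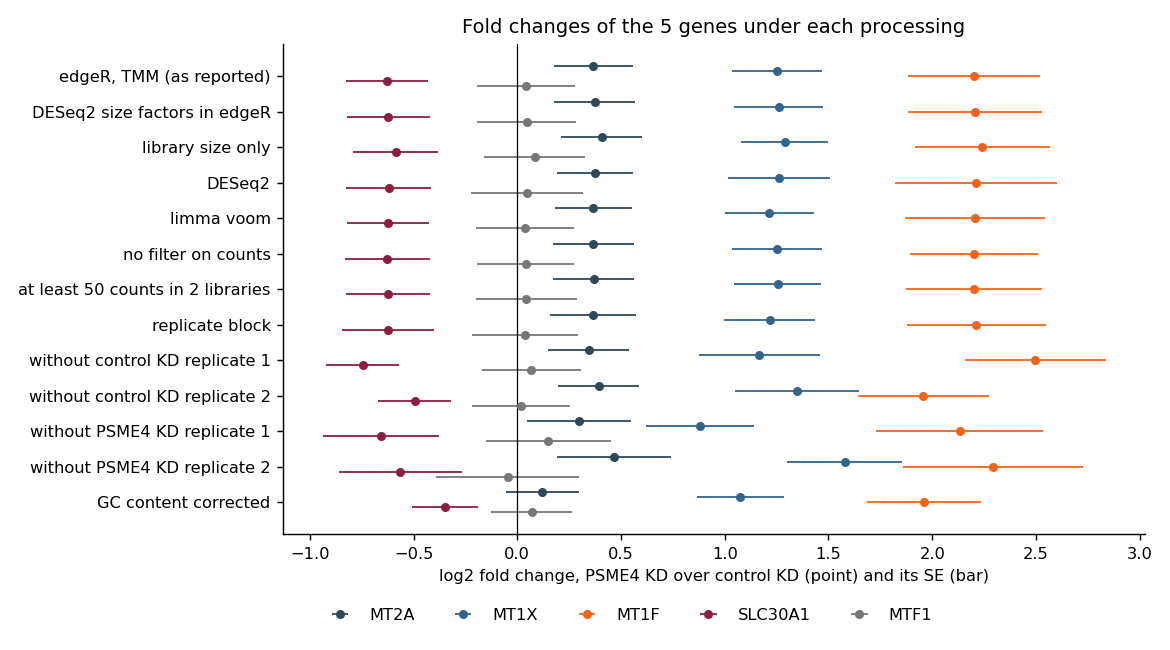
Log2 fold change of each gene (point) and its SE (bar), PSME4 KD over control KD, under each processing named on the vertical axis. MT1F and MT1X stay to the right of 0 in every row, SLC30A1 stays to the left and moves to −0.35 after the GC correction, and MTF1 lies on both sides of 0.

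Close paralogs can share reads, so the metallothioneins were also summed. Of 21 metallothionein and pseudogene symbols searched, 5 had a row: MT2A, MT1X, MT1F, MT1A and the pseudogene MT1DP. Their sum was 327 and 342 CPM in control KD 1 and 2 and 574 and 461 CPM in PSME4 KD 1 and 2. The sum was higher in both PSME4 KD libraries, and it differed more between those than between the control KD libraries. The means were 335 ± 10.4 and 518 ± 79.3 CPM (SD, n = 2), a 1.55-fold difference (log2 ratio 0.63), and without PSME4 KD 1 the log2 ratio was 0.46. A sum over these 5 rows does not depend on how reads were split among them, but it misses reads that the authors' counting dropped. Reads split with genes outside the sum can still move it. MT1F shared most sequence with MT1M, MT2A with MT2P1 and MT1X with AC026461.1, and none of these partners was summed. The sum therefore cannot show whether reads were traded with them.

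The unequal fold changes given above can be restated as the make-up of the metallothionein counts within each library, a description that needs no scaling between libraries and is no separate result. MT2A held 75.7% of them in control KD 1 (95% Wilson interval 74.4 to 77.1, counting error only), 74.5% in control KD 2 (73.2 to 75.9), 59.3% in PSME4 KD 1 (58.3 to 60.3) and 66.9% in PSME4 KD 2 (65.8 to 68.0). MT1X held 20.4% and 22.0% in control KD and 36.2% and 28.3% in PSME4 KD. For every 1000 MT2A counts there were 269 and 295 MT1X counts in control KD 1 and 2 and 610 and 423 in PSME4 KD 1 and 2. For MT1F these ratios were 11.2 and 7.42 against 33.0 and 33.2. The ratio of MT1A to MT2A was 31.7 and 36.1 in control KD and 38.2 and 34.2 in PSME4 KD, where the groups overlapped.

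**Figure D3:**
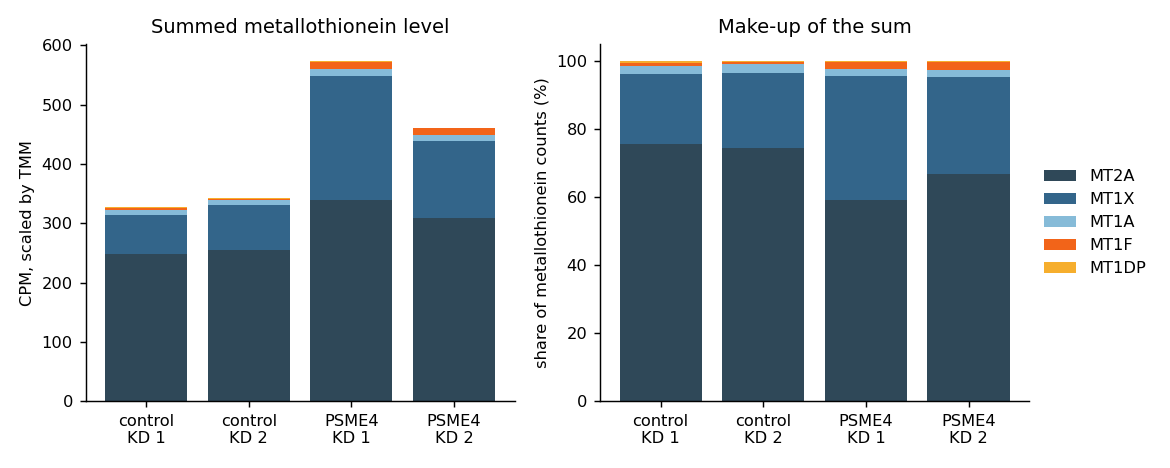
Left, summed level of the 5 metallothionein rows in CPM scaled by TMM in each library, stacked by gene; right, each gene's share of the metallothionein counts in percent. The sum is 327 and 342 CPM in control KD and 574 and 461 in PSME4 KD, and the MT1X share is 36.2% and 28.3% in PSME4 KD against 20.4% and 22.0%.

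Per kb of transcript (longest protein-coding transcript in GENCODE 29), the order of levels in control KD was MT2A at 320 CPM per kb, MT1X at 132, SLC30A1 at 16.3, MT1F at 3.38 and MTF1 at 1.89. In PSME4 KD the order was MT2A at 413, MT1X at 314, MT1F at 15.6, SLC30A1 at 10.6 and MTF1 at 1.95. MT1F and SLC30A1 thus traded places, with levels of 14.8 and 16.3 for MT1F and 10.3 and 10.8 for SLC30A1 in the PSME4 KD libraries. The MT1X and MT2A levels in PSME4 KD (243 and 386 against 393 and 433 CPM per kb) were separated by less than the spread of MT1X. These comparisons depend on the transcript lengths used, such as 0.538 kb for MT1X and 0.786 kb for MT2A. In CPM, MT1X was at 208 and 131 in PSME4 KD 1 and 2 and MT2A at 340 and 309. There SLC30A1 was above MT1F in both groups.

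Shared sequence bears on how well each row can be read. Of the 50-base windows of its transcript, MT1F had 3.59% and MT2A 4.88% in the transcript of another metallothionein or metallothionein pseudogene, and MT1E, not analysed here, 10.6%. MT1X shared none with another metallothionein but 55.8% with AC026461.1, a non-coding GENCODE gene that overlaps it on the same strand. SLC30A1 shared none with any other gene, and MTF1 0.644%. Reads of MT1X and of AC026461.1 cannot be told apart in that stretch, and the counter's treatment of reads with several matches is not known here.

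The metallothionein rows lie in a cluster on chromosome 16, from 56608584 to 56684196 on GRCh38 between the start of MT2A and the end of MT1X. Of 9 other tested genes within 500 kb of this span, 0 passed by edgeR in either direction, where 10.6% of all genes tested did. With so few genes, nothing is read from this count. Log2 fold changes of the 9 ran from −0.43 (NUDT21) to 0.78 (NLRC5), with a median of 0.13. The nearest on either side were BBS2 at 0.03 (SE 0.23) and NUP93 at 0.13 (SE 0.20). This neighbourhood was chosen after the values of the cluster were seen. MTF1 and SLC30A1 lie apart on chromosome 1, at 37809574 to 37859592 and 211571568 to 211579161.

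**Figure D4:**
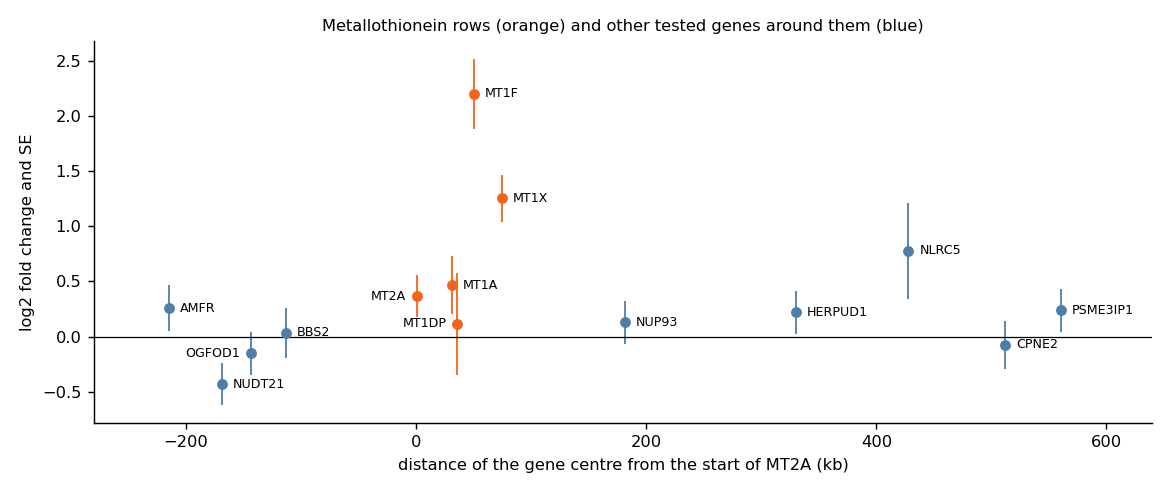
Log2 fold change (point) and SE (bar), PSME4 KD over control KD, of tested genes against the distance of their centre from the start of MT2A in kb. MT1F and MT1X stand at 2.20 and 1.25, while the 9 other genes (blue) lie between −0.43 and 0.78. MT2A (0.37), MT1A (0.46) and MT1DP (0.11) lie within that same range.

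Among metallothioneins outside the list, neither of 2 tested rows passed by edgeR or limma voom, and none reached an unadjusted p of 0.05 by edgeR. Over all genes tested edgeR called 10.6%, and 26.2% had an unadjusted p under 0.05. In DESeq2 MT1A did not pass and MT1DP received no adjusted p. MT1A, a functional family member, was at 7.87 and 9.20 CPM in control KD and 13.0 and 10.6 in PSME4 KD, a log2 fold change of 0.46 (SE 0.26; edgeR adjusted p = 0.261). The pseudogene MT1DP was at 0.11 (SE 0.47), and at −0.11 after the GC correction.

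None of 6 other zinc exporters of the SLC30 family passed by edgeR, DESeq2 or limma voom. With 10.6% of all genes tested called by edgeR, nothing is read from this count. EdgeR gave 4 of the 6 an unadjusted p under 0.05, against 26.2% of all genes tested. These 4 were of mixed direction, with SLC30A9, SLC30A5 and SLC30A4 below 0 and SLC30A3 above 0. Of the 6, 5 had values below 0 (4 after the GC correction), with a median of −0.39 beside −0.002 over all genes tested. SLC30A9, linked to mitochondrial zinc, was at −0.53 (SE 0.21), SLC30A5, of the secretory pathway, at −0.47 (SE 0.20), and SLC30A4, of endosomes, at −0.61 (SE 0.26). After the GC correction these were at −0.28, −0.25 and −0.38. SLC30A3, which loads zinc into vesicles, stood at 1.22 (SE 0.59) from 11 and 34 counts.

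None of 11 zinc importers of the SLC39 family passed by edgeR, DESeq2 or limma voom either, where edgeR called 10.6% of all genes tested. EdgeR gave 2 of the 11 an unadjusted p under 0.05, against 26.2% of all genes tested. The median of the 11 was 0.01, with values on both sides of 0. SLC39A1, a plasma membrane importer, was at 0.51 (SE 0.21), SLC39A8, which also carries manganese, at −0.48 (SE 0.21), and SLC39A7, which releases zinc from the endoplasmic reticulum, at 0.42 (SE 0.23).

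Of 9 copper handling genes, edgeR called 1 higher and none lower. Over all genes tested it called 10.6% in either direction and 4.56% higher. The share over both directions is near the background, and nothing is read from 1 call. The median of the list was 0.14. ATOX1, the chaperone that hands copper to the ATP7 pumps, rose from 54.3 and 46.0 CPM in control KD to 90.6 and 102 CPM in PSME4 KD, a log2 fold change of 0.94 (SE 0.20; edgeR adjusted p = 0.00356). It was at 1.02 after the GC correction and still called, and it lost its call in each edgeR fit with 1 library left out (adjusted p 0.0740 to 0.125), at log2 fold changes of 0.83 to 1.06. The copper pump ATP7B was at 0.35 (SE 0.24) and the superoxide dismutase SOD1 at −0.27 (SE 0.20), and neither passed.

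Of 8 partners and other reported targets of MTF1, 0 passed by edgeR, DESeq2 or limma voom, where edgeR called 10.6% of all genes tested. EdgeR gave 2 of the 8 an unadjusted p under 0.05, beside 26.2% over all genes tested. The median of the 8 was 0.18. The coactivator EP300 was at 0.64 (SE 0.22; edgeR adjusted p = 0.0529) and the factor SP1 at 0.50 (SE 0.20; edgeR adjusted p = 0.111). With library size as the sole scaling EP300 passed (edgeR adjusted p = 0.0271), and after the GC correction SP1 passed (edgeR adjusted p = 0.0323). The iron exporter SLC40A1 was at 0.35 (SE 0.20).

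Of 11 tested genes of the glucocorticoid receptor and its classical targets, edgeR called 1 lower and none higher. Over all genes tested it called 10.6% in either direction and 6.0% lower. TSC22D3, the leucine zipper protein that glucocorticoids induce, fell from 29.9 and 22.5 CPM in control KD to 14.6 and 14.1 CPM in PSME4 KD, a log2 fold change of −0.86 (SE 0.23; edgeR adjusted p = 0.0176). It lost its call in each edgeR fit with 1 library left out (adjusted p 0.0683 to 0.241), at log2 fold changes of −1.05 to −0.65. The receptor chaperone FKBP5 was at −0.55 (SE 0.21) and glutamine synthetase (GLUL) at −0.41 (SE 0.20), and neither passed. The median of this list was −0.05.

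**Figure D5:**
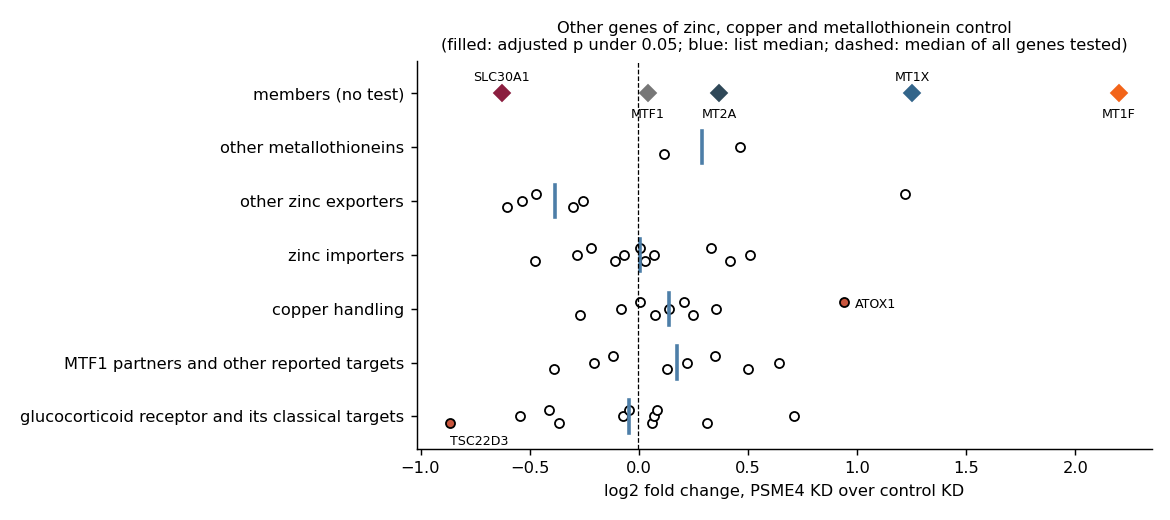
Log2 fold change of each gene, PSME4 KD over control KD, by list (circles: tested genes, filled where the adjusted p was under 0.05; blue bar: list median; dashed line: median of all 13497 genes tested; diamonds: the 5 listed genes, untested). Only ATOX1 and TSC22D3 are filled, and 5 of 6 other zinc exporters lie left of the dashed line.

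Over the 4 libraries, the mean centred log2 CPM of MT1F, MT1X and MT2A was −0.57 and −0.67 in the control KD libraries and 0.78 and 0.47 in those of PSME4 KD. Among 10307 other genes averaging 5 CPM or more, the smallest Euclidean distances to this profile were those of RABGGTA (0.03), CNN2 (0.11), TWF2 (0.13), DDAH2 (0.13), MRPS2 (0.13) and MMP24 (0.14). None of the 3 metallothioneins was as near to their own mean, at 0.32 for MT1X, 0.89 for MT2A and 0.97 for MT1F, since they share a direction and differ in size. Likeness over 4 libraries is a description of these libraries.

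The authors' deposited table gave log2 fold changes of control KD over PSME4 KD, the opposite direction, of −2.21 for MT1F, −1.26 for MT1X, −0.37 for MT2A, −0.047 for MTF1 and 0.62 for SLC30A1.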

How the data were processed

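Libraries of polyadenylated RNA came from a Lexogen SENSE kit, per the labels' protocols. Cutadapt, STAR and DESeq2 were used with build hg38, per the submitters' processing notes; for the counter, its strand setting and the annotation nothing is stated in the labels. Raw counts per gene were deposited by the authors and are what was tested. Also deposited were a signal (counts over a size factor for each library) and regularised log2 values, neither tested here, and the authors' log2 fold change and p-values, of which only the fold change was used.

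Counts were fitted in R 4.3.3 with edgeR 4.0.16 (filterByExpr, TMM, glmQLFit and glmQLFTest, 2 residual degrees of freedom), with Benjamini-Hochberg adjustment over 13497 genes and a threshold of 0.05. An SE is the absolute log2 fold change over the root of the F statistic. This fit shares information on spread across all genes, so an SE can be smaller or larger than a gene's own libraries would give. Alternatives used DESeq2 1.42.0 and limma 3.58.1, among others. The GC correction subtracts a lowess trend (span 0.4) on transcript GC content (GENCODE 29), which 97.3% of tested genes had. The fit was tested on simulated data. Wilson intervals are at 95%.

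The members and lists were chosen with earlier results of these data known. The genes named are the members, PSME4, the 3 genes of each list with the smallest p, and the 6 genes most like the metallothioneins; SLC30A3, NUDT21, NLRC5, BBS2 and NUP93 were named after their values were seen. Likeness was measured without MT1E. Protein sequences were not used here.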

Additional observations from a re-analysis of the deposited data

How the results depend on the processing

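Over the 4 fits with 1 library left out, the log2 fold change ran from 1.96 to 2.50 for MT1F, 0.88 to 1.58 for MT1X, 0.30 to 0.47 for MT2A, −0.047 to 0.15 for MTF1 (−0.047 without PSME4 KD 2, a reversed sign), −0.75 to −0.49 for SLC30A1 and −1.17 to −0.97 for PSME4, which kept its call only without PSME4 KD 2. The summed metallothionein log2 ratio ran from 0.46 to 0.78. Genes called ran from 43 to 281, 15 to 192 higher and 26 to 89 lower, with fewer samples in each fit, and the copper and glucocorticoid lists had 0 calls in each. At an adjusted p under 0.10, edgeR called 2240 genes, 1006 higher and 1234 lower.

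After the GC correction MT2A was at 0.12 and SLC30A1 at −0.35. The list of MTF1 partners went from 0 calls to 1 with DESeq2 size factors, library size, the filter of 50 counts, the replicate block (EP300 in each) and the GC correction (SP1); the cause was not tested. The labels do not say whether replicates of the same number were handled together. The correlation of within-group deviations was −0.05 over 10313 genes, which cannot settle this. With the replicate block 1554 genes were called, with MT1F at 2.21, MT1X at 1.22 and SLC30A1 at −0.62. No other scaling, filter or tool listed changed the direction of the 5 genes. The control KD level of MT1F rests on 32 and 22 counts.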
